A study of Oreochromis niloticus with 6 samples.

Results

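Liver long non-coding RNA (lncRNA) transcripts that were listed in the libraries of one diet and at 0 in all libraries of the other are described here. They come from juvenile male wild-type Nile tilapia (Oreochromis niloticus) of the GIFT stock, a farmed strain bred for growth. For 56 days they were fed to satiation with feed of 18.5% lipid, the high-fat diet (HFD), or of 8% lipid, the normal-fat diet (NFD). Each diet gave 3 liver libraries. Per the labels' protocols, RNA of 3 samples per diet was mixed and ribosomal RNA was removed. They do not say whether each library is a mixture of its own, so the spread between libraries may be partly or wholly technical. Members were chosen by their FPKM (fragments scaled by transcript length and library total): 0 in all 3 libraries of one diet and 0.5 or more in all 3 of the other. Of 19928 lncRNA transcripts, 19828 were searched, since the 100 with the highest mean were left out. The rule found 17 members, 10 in HFD (HFD-only, 0.0504% of those searched) and 7 in NFD (NFD-only, 0.0353%). These shares restate the rule, which used the diet contrast itself, so the members' own values are given without a test.

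Long non-coding RNAs are transcripts with no recognised protein product. Some act on nearby genes or on chromatin, some bind proteins or microRNAs, and for most no role is known. They are often present at few copies per cell and in a tissue-restricted way. An assembler joins reads into transcripts, and where several transcripts of a locus overlap it shares the reads out among them. A transcript can then be listed at 0 while its locus is still transcribed. The members carry assembly names of the form MSTRG.gene.transcript, so no role can be given for any of them.

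A value of 0 in these files is therefore a listing and not proof of absence. Among 73 transcripts of ribosomal proteins, 5 were at 0 in at least 1 library and at 5 FPKM or more in another. Every cell needs ribosomal proteins, but these are single transcripts, so a 0 among them does not stand for the gene. At least 1 value of 0 occurred in 26.8% of the lncRNA transcripts searched. The number of lncRNA transcripts at 0 was 1982, 1822 and 1913 in HFD replicates 1, 2 and 3. In NFD replicates 1, 2 and 3 it was 2023, 1773 and 2294, so NFD held both the fewest and the most. Each library listed between 13367 and 14444 lncRNA transcripts at 0.5 FPKM or more. The HFD libraries averaged 14287 ± 138 such transcripts (SD, n = 3) and the NFD libraries 13886 ± 524 (SD, n = 3). The two-sided p of the exact permutation test for this difference of 401 was 0.3, where 3 against 3 libraries can give no p below 0.1. Libraries did not group by diet. HFD replicate 1, HFD replicate 3 and NFD replicate 2 were the most alike, with a Pearson r of 0.716 to 0.758 across lncRNA transcripts against 0.624 or less for the other 12 pairs. Transcripts are not independent replicates, and the values share a normalization per library. Levels of 14 gene IDs of hepatocyte markers are given beside the tissue label. Some were low, with apoba, cps1 and f2 at 1.39 FPKM or less in every library. Their summed FPKM lay between 1581 and 2551 in HFD and between 2821 and 6515 in NFD, with 0 of 10 tested gene IDs called in limma. The fibrinogen chain fgb was at 3857 and 3101 FPKM in NFD replicates 1 and 3 and between 0.835 and 1.18 in the other libraries. Another chain, fga, was at 298 FPKM in NFD replicate 3 and between 9.82 and 11.4 in the other libraries. Without fgb the sums overlapped, from 1580 to 2550 in HFD and from 2345 to 2821 in NFD. The 8 exocrine pancreas gene IDs summed to between 4585 and 17712 FPKM in HFD and between 3916 and 16461 in NFD. In every library but NFD replicate 3 this sum was above that of the 14 hepatocyte gene IDs. In limma 0 of the 8 were called, with 7 higher in HFD and 1 lower, where 50.4% of all genes tested were higher in HFD. Summed levels of the erythrocyte, macrophage and granulocyte, lymphocyte, endothelial, bile duct and skeletal muscle lists overlapped between diets, and 0 of their tested gene IDs were called in limma. Of all 9204 genes tested 0% were called, so nothing is read from the marker counts called. Whether cell-type content has a part in the members' values was not tested. In bulk tissue, fewer cells of a type and less RNA per cell cannot be told apart.

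The highest member was MSTRG.38085.2, an HFD-only transcript at 34.0, 8.89 and 12.9 FPKM in HFD replicates 1, 2 and 3. It was in the 96.6th percentile of the searched transcripts by mean over the 6 libraries. Among the HFD-only transcripts MSTRG.22575.3 followed at 7.53, 1.13 and 5.53 FPKM, with HFD replicate 2 far below the other libraries of its diet. The remaining HFD-only transcripts stayed between 0.509 and 2.60 FPKM. MSTRG.9148.1 was at 2.05, 2.60 and 1.82 FPKM in HFD replicates 1, 2 and 3. MSTRG.14598.1 was at 1.57, 2.07 and 1.57 FPKM, and its 3 libraries were close together. MSTRG.11407.1 was at 1.82, 1.33 and 1.47 FPKM. These 3 were the steadiest of the HFD-only transcripts with a lowest library above 1 FPKM. Their ratio of the highest to the lowest library was 1.32 to 1.43.

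Lower in the order of their lowest library were 5 HFD-only transcripts. MSTRG.31541.3 was at 0.988, 2.41 and 1.75 FPKM in HFD replicates 1, 2 and 3. MSTRG.1150.2 was at 0.937, 0.798 and 0.866 FPKM, the narrowest range of the HFD-only transcripts in relative terms, with a ratio of 1.17. MSTRG.37866.1 was at 2.03, 1.42 and 0.717 FPKM. In both MSTRG.31541.3 and MSTRG.37866.1 the lowest library was under 1 FPKM, but in different replicates. MSTRG.11409.1 was at 0.678, 1.34 and 1.30 FPKM, and MSTRG.19686.1 at 1.75, 0.509 and 1.44 FPKM. Of the 10 HFD-only transcripts, HFD replicate 2 held the lowest listed value in 5 and the highest in 4.

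Among the 7 NFD-only transcripts the steadiest was MSTRG.18275.1, at 3.91, 3.92 and 4.43 FPKM in NFD replicates 1, 2 and 3. Its highest library was 1.13 times its lowest, the smallest ratio of the 17. MSTRG.23819.1 was at 2.36, 2.06 and 2.71 FPKM. Both had only their own transcript under the gene ID, so the whole listed locus was at 0 in HFD. MSTRG.13439.1 was at 1.12, 1.42 and 2.45 FPKM and MSTRG.7171.1 at 2.45, 0.723 and 0.659 FPKM, also alone under their gene IDs. The other NFD-only transcripts shared a gene ID with further transcripts. MSTRG.6521.3 was at 1.53, 1.60 and 13.4 FPKM, so NFD replicate 3 stood far above the rest. MSTRG.32774.1 was at 1.14, 0.769 and 0.899 FPKM, and MSTRG.5636.4 at 2.48, 5.22 and 0.537 FPKM, the widest ratio of the 17 at 9.72.

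Summed over the 10 HFD-only transcripts, the level was 53.4, 22.5 and 29.4 FPKM in HFD replicates 1, 2 and 3. Without MSTRG.38085.2 it was 19.4, 13.6 and 16.5 FPKM, so that transcript set most of the spread between the libraries. The 7 NFD-only transcripts summed to 15.0, 15.7 and 25.1 FPKM in NFD replicates 1, 2 and 3, the last raised by MSTRG.6521.3. By mean over all 6 libraries, which counts the zeros, the members ranged from the 9.41st percentile of the searched transcripts (MSTRG.1150.2) to the 96.6th, and 7 of 17 were above the 50th. In 8 of the 17 the highest listing library was less than 2 times the lowest.

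**Figure D1:**
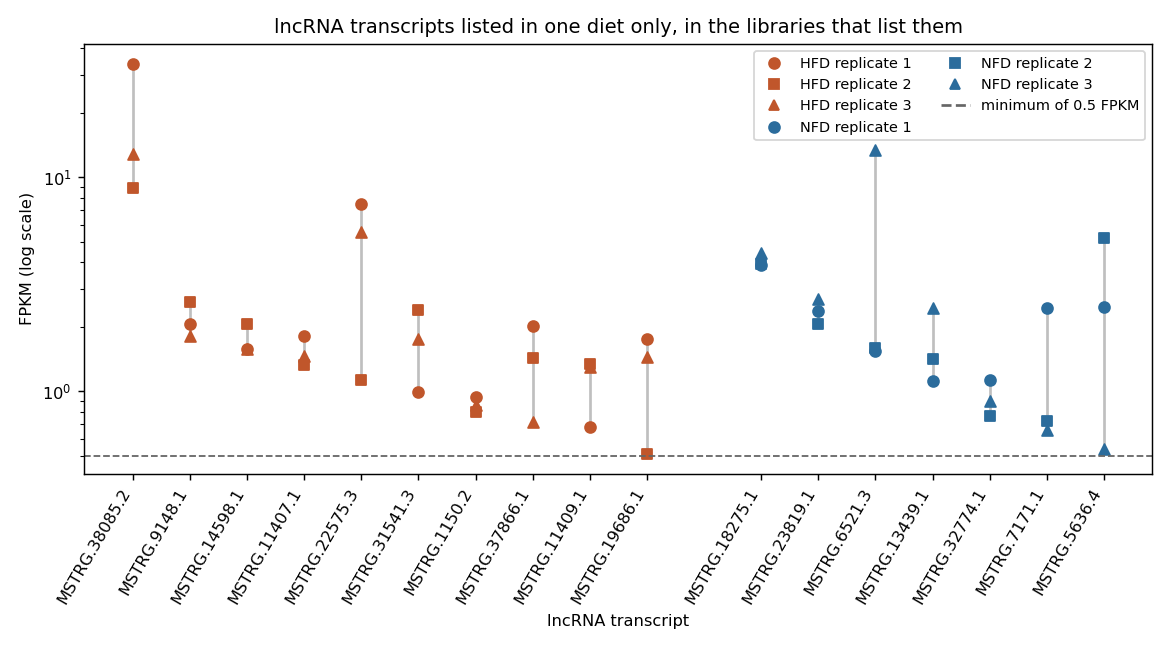
FPKM (log axis) of the 17 transcripts in the 3 libraries that list each of them, by replicate, with the minimum of 0.5 FPKM dashed; the other 3 libraries are at 0 and are not drawn. MSTRG.38085.2 reaches 34.0 FPKM, and MSTRG.6521.3 and MSTRG.5636.4 spread most between libraries.

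Close to the minimum, transcripts inside and outside it looked alike. MSTRG.19686.1 and MSTRG.11409.1 were the HFD-only transcripts nearest above it, with lowest libraries at 0.509 and 0.678 FPKM. MSTRG.11411.1 and MSTRG.32066.1, at 0 in all NFD libraries, fell just short with lowest HFD libraries at 0.490 and 0.469 FPKM. In NFD, MSTRG.5636.4 and MSTRG.7171.1 were nearest above, at 0.537 and 0.659 FPKM. MSTRG.34880.1 and MSTRG.11070.1 were nearest below, at 0.367 and 0.360 FPKM in NFD replicates 1 and 3. MSTRG.11070.1 was at 8.73 and 4.08 FPKM in NFD replicates 1 and 2, above most members. The zeros were the scarcer condition. Of the transcripts at 0.5 FPKM or more in all HFD libraries, 9613 had no 0 in NFD, 497 had a 0 in 1 NFD library, 87 in 2 and 10 in all 3. For those at 0.5 FPKM or more in all NFD libraries the counts in HFD were 8782, 187, 23 and 7.

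The same rule was applied to the other 9 ways to put the 6 libraries into 3 and 3. In those, each set of 3 libraries mixes the diets, and the sets share libraries with each other and with the diets, so the counts are a description with no test. The 18 mixed sets gave between 3 and 22 transcripts, with a median of 7. The HFD-only count of 10 was exceeded by 2 mixed sets and equalled by 1, and the NFD-only count of 7 was exceeded by 9. The largest counts were the opposite sides of a single grouping. HFD replicates 1 and 3 with NFD replicate 2 alone listed 22 transcripts, and HFD replicate 2 with NFD replicates 1 and 3 alone listed 21. The first 3 of these libraries are those most alike across lncRNA transcripts. By total, the diets' 17 were below the 43 of that grouping and the 18 of another, equal to 1 and above the other 6.

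**Figure D2:**
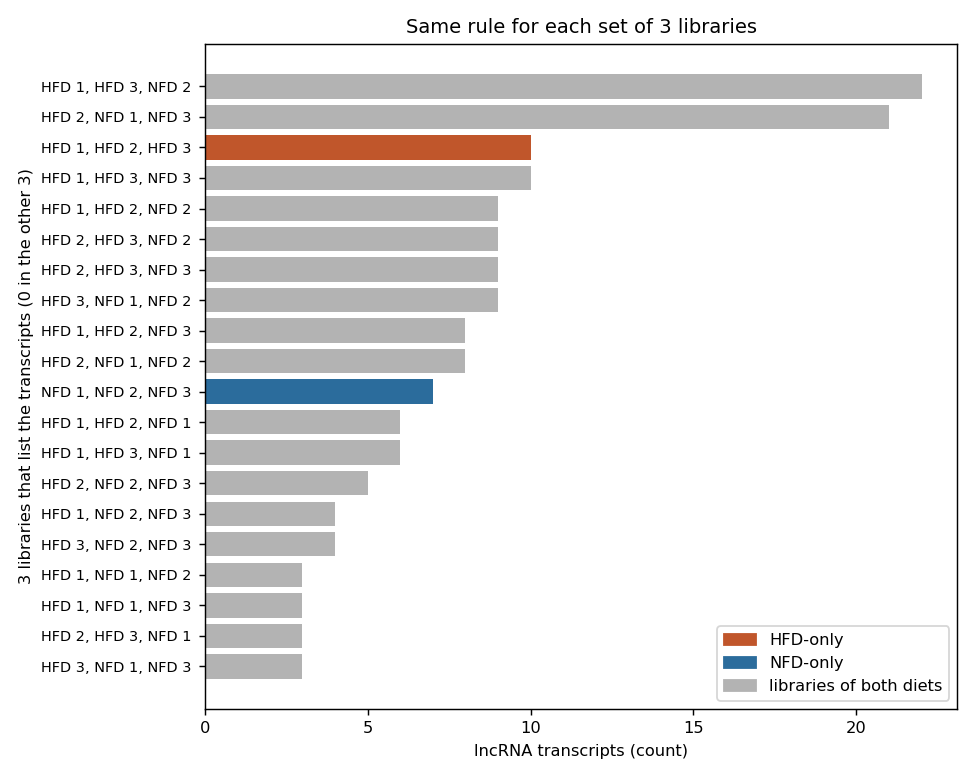
Number of lncRNA transcripts at 0.5 FPKM or more in 3 libraries and at 0 in the other 3, for each of the 20 sets of 3 libraries. HFD-only (10) and NFD-only (7) lie inside the range of 3 to 22 of the sets that mix the diets.

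Members came from loci with several lncRNA transcripts in 8 of 17 cases (47.1%), 5 HFD-only and 3 NFD-only. Of all searched transcripts 6.94% came from such loci, and of the 142 transcripts found in the mixed sets 26.1%. In 7 of the 8 loci the other transcripts together were above 0 in all 6 libraries, so the locus was listed in both diets. The locus sums include the member, which the rule set to 0 in one diet, so nothing is read from how many of them separate the diets: 3 of the 8 did, where 9.46% of all 560 lncRNA loci with several transcripts did. Without the members, the sums of the other transcripts separated the diets in 2 of the 8, in opposite directions. The 9.46% is for whole loci and no like share was taken for such sums, so nothing is read from this count either. For MSTRG.38085 the sum of its lncRNA transcripts was 37.8, 29.6 and 24.3 FPKM in HFD replicates 1, 2 and 3. In NFD it was 23.5, 11.5 and 25.3 FPKM, so NFD replicate 3 lay above HFD replicate 3. MSTRG.38085.2 made up between 30.1% and 90.1% of the locus in HFD. For MSTRG.22575 the locus sum was 14.5, 13.4 and 15.8 FPKM in HFD and 7.78, 14.8 and 6.79 FPKM in NFD. There another transcript of the locus, MSTRG.22575.1, was listed only in NFD replicate 2, at 10.8 FPKM.

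Both remaining loci with an HFD-only member and overlapping sums were lower in the HFD libraries than MSTRG.38085 and MSTRG.22575. MSTRG.31541 summed to 2.14, 6.46 and 3.51 FPKM in HFD and 5.29, 1.67 and 1.51 FPKM in NFD. Its transcript MSTRG.31541.4 was at 0 in every HFD library and at 2.23, 0.595 and 0 FPKM in NFD, so the locus held transcripts listed in either diet. MSTRG.1150 summed to 2.73, 3.82 and 2.12 FPKM in HFD and 7.94, 1.94 and 1.30 FPKM in NFD, where NFD replicate 1 was highest. MSTRG.6521, with an NFD-only member, summed to 2.43, 7.23 and 3.12 FPKM in HFD and 2.99, 3.20 and 38.6 FPKM in NFD. In NFD replicate 3 all 3 transcripts of that locus were high, at 13.7, 11.5 and 13.4 FPKM.

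The sums of MSTRG.14598, MSTRG.5636 and MSTRG.32774 did not overlap between diets. MSTRG.14598 summed to 2.05, 3.10 and 2.33 FPKM in HFD and 1.77, 1.61 and 0 FPKM in NFD. Its second transcript, MSTRG.14598.2, was at 0.479, 1.03 and 0.761 FPKM in HFD and at 1.77, 1.61 and 0 FPKM in NFD, so without the member the diets overlapped. MSTRG.5636 summed to 2.30, 4.55 and 0.366 FPKM in HFD and 8.64, 12.0 and 6.52 FPKM in NFD. Without the member MSTRG.5636.4 the NFD libraries of that locus were still above, at 6.16, 6.78 and 5.98 FPKM. MSTRG.32774 went against its member: the sum was 1.998, 2.35 and 1.96 FPKM in HFD and 1.22, 1.95 and 1.05 FPKM in NFD, while the member MSTRG.32774.1 was listed only in NFD. The other transcript, MSTRG.32774.2, was at 0.0837, 1.18 and 0.148 FPKM in NFD, below all HFD libraries.

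**Figure D3:**
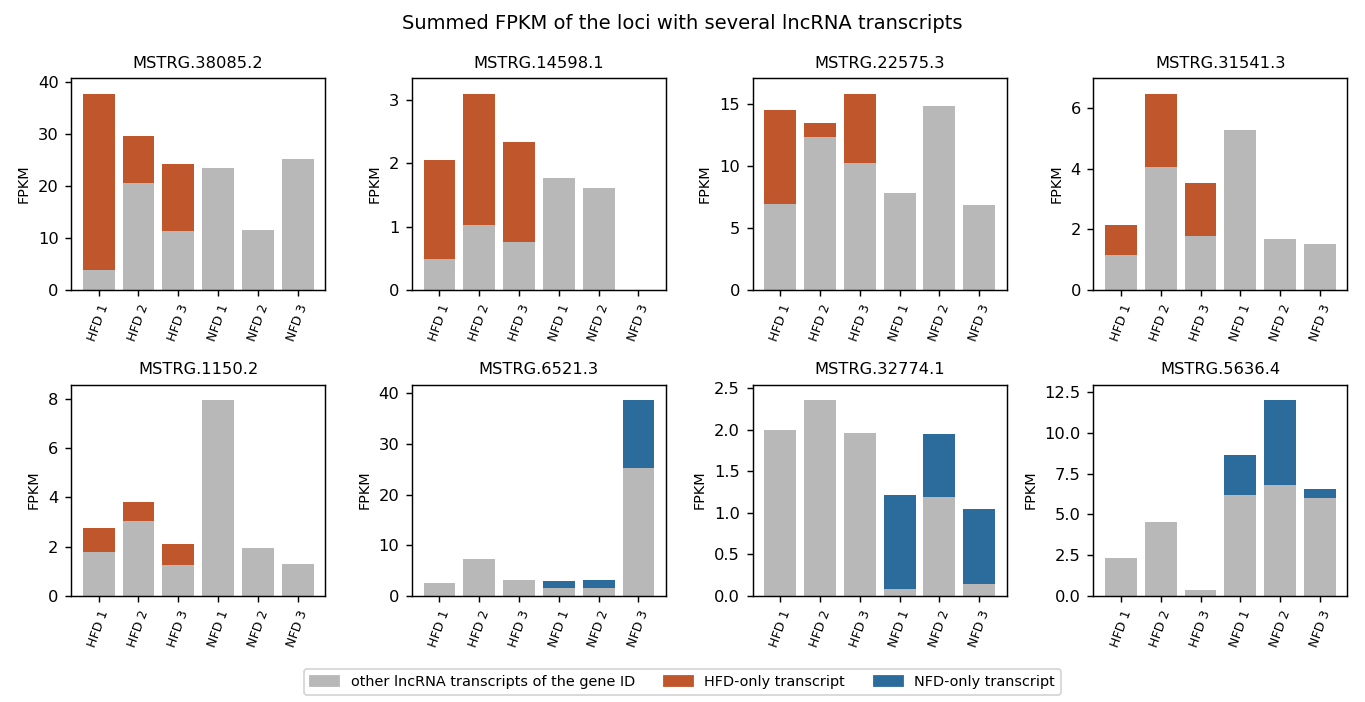
FPKM per library of the 8 loci with several lncRNA transcripts, with the member coloured by diet and stacked on the sum of the other transcripts (grey). In 7 of the 8 loci grey bars stand in all 6 libraries.

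The 16 other transcripts of these 8 loci were not used by the rule, although sharing of reads within a locus may tie them to the members. They were tested with limma, a linear model with a shared variance prior, on log2(FPKM + 0.5) over all lncRNA transcripts with at least 3 libraries at 0.1 FPKM or more. Of the 16, 12 entered that fit and 0 were called at an adjusted p under 0.05, where 0% of all 18368 were called. At an unadjusted p under 0.05 there was 1 of 12, against 4.24% of all tested. The diets did not overlap in 1 of 12, against 9.81% of all. That transcript was MSTRG.32774.2, higher in HFD by 1.59 ± 0.47 on the log2(FPKM + 0.5) scale (SE; limma, adjusted p = 0.982). Next by p were MSTRG.5636.1, at -1.41 ± 0.76, MSTRG.22575.2, at 0.64 ± 0.38, and MSTRG.5636.2, at -1.06 ± 0.73 (log2 fold change ± SE; limma, adjusted p = 0.982 for each). Of the 12, 5 were higher in HFD and 7 lower. Their median log2 fold change was -0.19, against 0.07 over all transcripts tested.

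Loci with a single lncRNA transcript, 9 of the 17, were wholly at 0 in one diet. Among them MSTRG.11407.1 and MSTRG.11409.1 lay 2 transcript numbers apart, the only such pair among the members. The files number transcripts over both tables, and lncRNA transcripts between and beside the pair had the same zeros. MSTRG.11408.1, between them, was at 0.381, 1.35 and 1.00 FPKM in HFD replicates 1, 2 and 3 and at 0 in all NFD libraries. MSTRG.11411.1 was at 0.490, 1.26 and 0.605 FPKM and also at 0 in NFD. Both missed the minimum through HFD replicate 1 alone. HFD replicate 1 was also the lowest library for MSTRG.11409.1, but the highest for MSTRG.11407.1.

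The zeros were not shared by all transcripts of the stretch. MSTRG.11410.1 was at 1.49, 0.436 and 1.15 FPKM in HFD and 0.531, 0.796 and 0.736 FPKM in NFD, with overlapping libraries. MSTRG.11413.1 was at 0.851, 1.60 and 1.36 FPKM in HFD and 0.511, 0.566 and 0.721 FPKM in NFD, so all HFD libraries were above. Within 8 numbers of the pair there were 9 lncRNA transcripts, 4 of them at 0 in NFD and above 0 in every HFD library. Among all lncRNA transcripts 30 had this pattern (0.151%), so the stretch held 4 of the 30, of which 2 are the members themselves. Of the 30, 6 had another within 2 numbers, these 4 included. The reverse pattern, at 0 in HFD and above 0 in every NFD library, occurred in 32 (0.161%), 2 of them with such a neighbour. MSTRG.11400.1, MSTRG.11397.1 and MSTRG.11417.1, also in the stretch, overlapped between diets. Neighbours by number also occurred in 2 of the 18 mixed sets, the opposite sides of 1 grouping. Of the 22 transcripts listed in HFD replicates 1 and 3 with NFD replicate 2, 4 lay within 2 numbers of another. On the opposite side 2 of the 21 did. In the remaining mixed sets no transcript had such a neighbour. The 5 transcripts of the mRNA table in the stretch showed the pattern of zeros in 0 cases. ENSONIT00000018670 was listed only in HFD replicate 2 and ENSONIT00000018676 only in NFD replicate 3. No share over that table was taken, so nothing is read from this count. Of the 5, ENSONIT00000032585 was at 0.648, 0.309 and 0.781 FPKM in HFD and 0.943, 1.54 and 1.54 FPKM in NFD, the opposite order. The stretch was singled out after its values were seen.

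**Figure D4:**
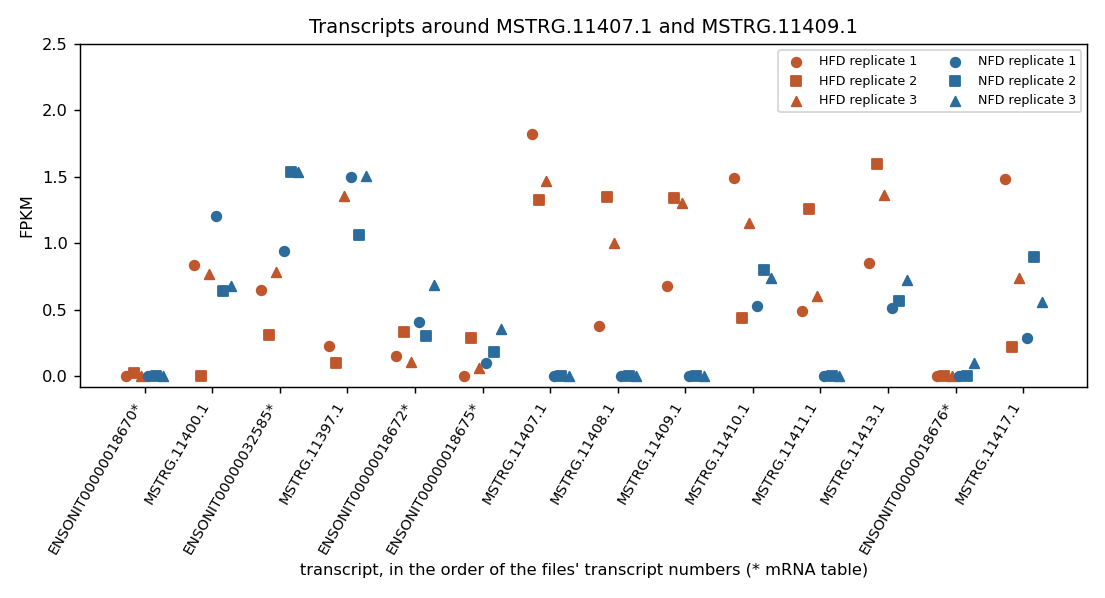
FPKM of the transcripts around MSTRG.11407.1 and MSTRG.11409.1 in all 6 libraries, in the order of the files' transcript numbers (not to scale; asterisks mark the mRNA table). MSTRG.11407.1, MSTRG.11408.1, MSTRG.11409.1 and MSTRG.11411.1 are at 0 in all NFD libraries, while MSTRG.11410.1 and MSTRG.11413.1 are listed in all 6.

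Protein-coding genes near the members come from the mRNA table, which the rule did not use. Only 2 members shared a gene ID with a gene of that table. For MSTRG.31541.3 this was si:ch211-236d3.4, at 2.48, 4.95 and 2.38 FPKM in HFD and 2.97, 1.63 and 2.37 FPKM in NFD, with overlapping libraries. Its log2 fold change was 0.38 ± 0.32 (SE; limma, adjusted p = 0.919). For MSTRG.5636.4 it was ENSONIG00000021827, at most 0.0614 FPKM in any library and not tested. Of all 9204 genes tested 0% were called at an adjusted p under 0.05, 6.02% had an unadjusted p under 0.05 and 11.6% did not overlap between diets.

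Consecutive gene numbers mostly follow the genome. Of 6003 pairs of named genes at most 3 gene numbers apart that matched RefSeq symbols (assembly O_niloticus_UMD_NMBU), 83.7% were at most 5 genes apart there. Within 3 gene numbers, 10 of the 17 members had a named gene on at least 1 side, 16 genes in all. Of these 8 passed the filter of 0.5 FPKM in 3 libraries, 0 were called, and 0 had an unadjusted p under 0.05. None of the 8 separated the diets, against 11.6% of all genes. Their log2 fold changes ran from -0.54 to 0.27, with 4 higher and 4 lower in HFD and a median of 0.03 against 0.00 over all genes.

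The gene ID of MSTRG.22575.3 lies between c8b and C8A, which encode the beta and alpha chains of complement component C8, part of the pore-forming complex of complement made in liver. In RefSeq, 0 annotated genes separate them. C8A was at 28.2, 42.7 and 41.6 FPKM in HFD and 47.0, 35.3 and 55.5 FPKM in NFD. Its partner c8b was at 24.2, 45.7 and 33.2 FPKM in HFD and 31.3, 29.8 and 123 FPKM in NFD. The diets overlapped for both. The log2 fold change was -0.29 ± 0.27 for C8A (SE; limma, adjusted p = 0.919) and -0.54 ± 0.60 for c8b (adjusted p = 0.930). NFD replicate 3 sets the sign of c8b: without it the log2 fold change was 0.12 (limma, adjusted p = 0.995).

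Sord, the sorbitol dehydrogenase of the polyol pathway, follows MSTRG.6521.3 and was at 12.6, 13.4 and 9.78 FPKM in HFD and 6.65, 11.4 and 12.0 FPKM in NFD. In NFD replicate 3, where the MSTRG.6521 locus was highest, sord was within the range of the HFD libraries. Its log2 fold change was 0.27 ± 0.28 (SE; limma, adjusted p = 0.922). The gene on the other side, apba2b, was at 0.0117 FPKM or less in every library, and 0 RefSeq genes lie between them. Gosr1, whose product acts in vesicle fusion at the Golgi, precedes MSTRG.5636.4 in gene number. In RefSeq, 7 genes lie between gosr1 and pde3a, the named gene on the other side, so this neighbourhood is wider than the 5 genes used above as close. Gosr1 was at 4.11, 4.34 and 4.04 FPKM in HFD and 3.25, 3.63 and 4.09 FPKM in NFD, a log2 fold change of 0.17 ± 0.17 (SE; limma, adjusted p = 0.921).

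The gene maml3, a coactivator of Notch signalling in mammals, lies 3 gene numbers before MSTRG.14598.1 and was between 3.13 and 3.88 FPKM in all 6 libraries. The glycerol kinase family gene gk5, beside MSTRG.1150.2, was between 7.58 and 13.7 FPKM. Beside MSTRG.31541.3, the gene listed as ENSONIG00000000274/cnbpb was between 2.17 and 3.86 FPKM, with overlapping diets. The Ras pathway scaffold ksr1a, beside MSTRG.18275.1, was between 0.621 and 1.91 FPKM with overlapping diets. On its other side VEZF1, a zinc finger factor, was at 0.384, 0.297 and 0.593 FPKM in HFD and 0.273, 0.225 and 0.272 FPKM in NFD. All HFD libraries of VEZF1 were above the NFD libraries, but the gene missed the filter and was not tested. Beside MSTRG.7171.1 in gene number, slc18b1 was at 0 in all libraries and otofb at 0.00981 FPKM or less. Both named genes next to this NFD-only transcript were thus listed near 0 in both diets. Their distance in RefSeq is not given here.

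**Figure D5:**
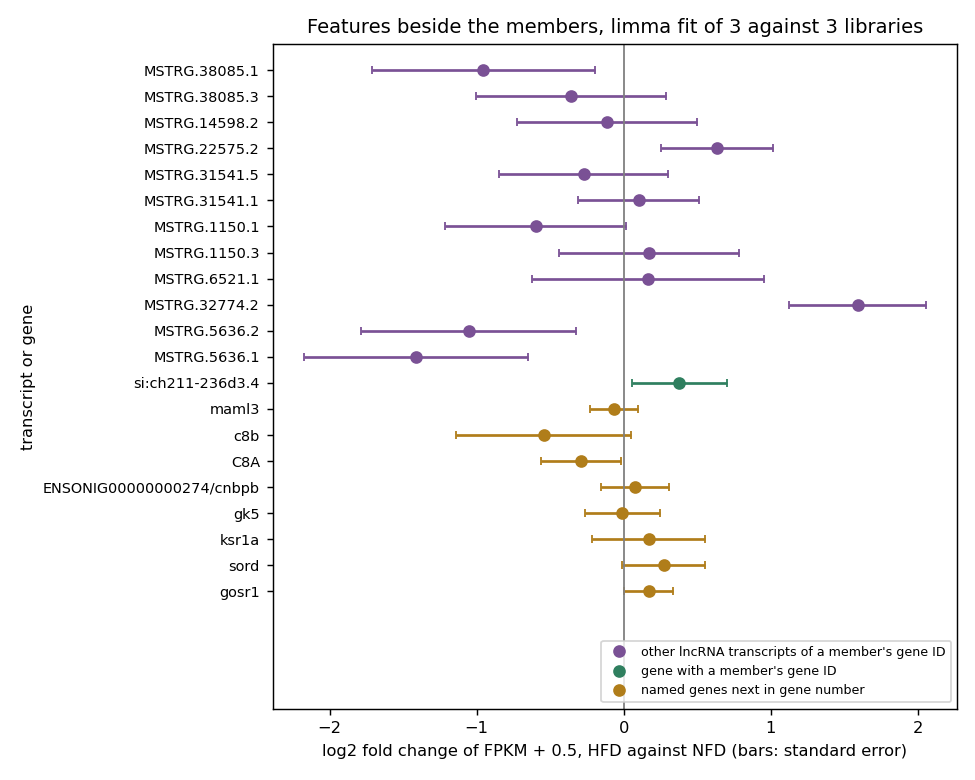
Log2 fold change of FPKM + 0.5, HFD against NFD, with its standard error (limma, 3 against 3 libraries), for the 12 tested transcripts that share a gene ID with a member, the 1 tested gene with a member's gene ID and the 8 tested named neighbours. The values run from -1.41 to 1.59, and 0 were called at an adjusted p under 0.05.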

How the data were processed

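The deposited tables hold FPKM per transcript, made by the authors and named so per the file headers, in 6 liver libraries. Tools listed in the submitters' processing notes, without saying what each did, are StringTie 1.3.0, HISAT2 2.0.4, edgeR 3.22.3, FastQC 0.10.1 and cutadapt 1.10. How lncRNAs were called, whether strand was used and which genome build served are each not given in the sources used here. Without strand, reads from a stretch where transcripts overlap on opposite strands may not be told apart. Values of 0.0001 or less were set to 0. Depth in reads is unknown: of 500 low transcripts, at most 3% shared 1 ratio between 2 libraries within 2%.

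Members and lists were chosen with earlier results of these data known. Rows of the mRNA table were summed per gene ID. Each table was fitted alone with limma 3.58.1 in R 4.3.3 (variance trend) on log2(FPKM + 0.5), with diet as the only term, after a filter of 3 libraries at 0.1 FPKM (lncRNA) or 0.5 FPKM (genes). All p-values are two-sided and set the diet difference only against the spread between these libraries. Those named adjusted were adjusted by Benjamini-Hochberg over all rows of a fit. Those named unadjusted and those of the permutation test were not. Fold changes on this scale understate changes of low transcripts. The fits were tested on simulated data. Alternatives covered the minimum, the zero, pseudocounts, filters, centring, the variance prior, a replicate block and leaving out each library.

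All 17 members are named, with the transcripts nearest the minimum and, of each kind of feature beside the members, the 4 with the smallest p, since none passed. Further features were chosen after their values were seen. Of 11334 named gene IDs with a number, 76.7% matched 1 RefSeq symbol, so the comparison of gene numbers with RefSeq covers only those. No lncRNA sequence or position was used here.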

Additional observations from a re-analysis of the deposited data

How the results depend on the processing

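The member counts depend on the minimum and on the libraries. With a minimum of 0.25 FPKM there were 20 HFD-only and 12 NFD-only transcripts, and with 1 FPKM 5 and 4. With the rule on sums per gene ID there were 5 HFD-only and 5 NFD-only loci, of which 5 and 4 were loci of members. Leaving out a library in turn gave between 19 and 61 HFD-only and between 13 and 32 NFD-only transcripts, as the rule then asks less of each transcript. Both maxima came without NFD replicate 2. Treating 0.01 or 0.1 FPKM as 0, keeping the 100 most abundant transcripts or trimmed-mean centring left each count within 1.5 times.

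Under all 12 alternatives of the fits, 0 features beside the members were called, the replicate block included (0 called). Over all features, the replicate block called 0 of 18368 lncRNA transcripts and 0 of 9204 genes. The most were called without NFD replicate 2, at 4 of 18932 lncRNA transcripts and 10 of 9829 genes. Almost nothing was called anywhere, so nothing is read from the features beside the members. Replicate numbers did not pair the libraries: deviations of same-numbered libraries correlated between -0.304 and -0.00232 across lncRNA transcripts. Of 108 values for 9 single features, 107 kept their sign, and c8b, at -0.54, ranged from -0.90 to 0.12 with each library left out, positive without NFD replicate 3. Other log2 fold changes kept their sign but moved by over 1.5 times. Sord, at 0.27, was 0.016 without NFD replicate 1 and 0.42 without NFD replicate 3. MSTRG.5636.1, at -1.41, was -0.49 without HFD replicate 3, and MSTRG.5636.2, at -1.06, was between -1.97 (without NFD replicate 3) and -0.54 (without NFD replicate 2). For si:ch211-236d3.4, at 0.38, the lowest value was 0.08 (without HFD replicate 2), for C8A, at -0.29, the range was -0.46 (without NFD replicate 2) to -0.10 (without HFD replicate 1), for gosr1, at 0.17, the lowest was 0.10 (without NFD replicate 1), and for MSTRG.22575.2, at 0.64, it was 0.37 (without NFD replicate 2). A pseudocount of 0.1 moved MSTRG.32774.2 from 1.59 to 2.501 and MSTRG.5636.1 to -2.19. The difference in listed transcripts per library was between 142 and 665 with each library left out. Without NFD replicate 2 it was 665, and all HFD libraries were above the remaining NFD libraries. The exact permutation p was then 0.1, and no lower p was possible. Leaving out any other library gave a p of 0.3 to 0.6 in that test. Depth in reads is unknown, so no floor can be set under a 0.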

Other observations

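The same rule applied to the mRNA table found 3 HFD-only and 2 NFD-only transcripts of 33245, a description with no test. The thioesterase gene acot21 had a transcript at 0.722, 0.665 and 0.796 FPKM in HFD replicates 1, 2 and 3 and at 0 in NFD. The homeobox gene hesx1 had one at 0.804, 1.14 and 0.786 FPKM in HFD and at 0 in NFD. In NFD, a transcript of ercc3, a helicase of transcription and DNA repair, was at 0.631, 1.03 and 0.955 FPKM and at 0 in HFD. The other HFD-only transcript, of ENSONIG00000021418, was at 0.552, 0.899 and 0.827 FPKM, and the other NFD-only transcript, of ENSONIG00000024246, at 0.594, 0.910 and 0.561 FPKM. All were low, with 1.14 FPKM the highest value of the 5. These are values of single transcripts. Levels of the whole genes are not given here, so a 0 does not stand for the gene. The files give no position for any of them.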
